A study of Mus musculus with 6 samples.

Results

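The genes described here are 43 genes of the G2 phase and mitosis, among 21883 protein-coding genes placed by symbol on the assembled mouse chromosomes. They form a named list, chosen by the height (fold enrichment) and constancy over all 6 libraries of the estrogen receptor alpha (ERα) peaks at some of them, so peak presence and height at these genes are described and not tested. The peaks came from CUT&RUN, in which an antibody against ERα, the product of Esr1, directs a nuclease to chromatin in isolated nuclei, and the short fragments it releases are read by sequencing. Limbic brain was the tissue, from adult C57/BL6 male mice, which were gonadectomized at 10 to 12 weeks of age and used 3 weeks later. In 3 libraries the males had received 5 µg estradiol benzoate, an esterified estradiol, under the skin, and in the other 3 libraries corn oil. Nuclei were taken 4 hours after either injection, and the males of both groups lacked testes. Separate animals, or pools of animals, are not recorded for the libraries, so the spread between them may be technical. No RNA was measured in these libraries, so the low expression of mitotic genes in adult neurons, which is part of how the list was described, was not checked.

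Mitotic genes are transcribed late in the cell cycle, in G2 and mitosis, and are held down in cells that do not divide. Many of their promoters carry a CCAAT box, bound by the trimeric factor NF-Y, and a cell cycle genes homology region (CHR) close to the start of transcription. The CHR is bound through LIN54 by the MuvB core, which with E2F4 and the pocket proteins p107 or p130 forms the repressor complex DREAM, and with B-MYB or FOXM1 forms activators. ERα itself recognises the estrogen response element, an inverted repeat of GGTCA with a gap of 3 bases, and can also be held at DNA by other factors. In the adult limbic brain most neurons have left the cell cycle, and dividing cells are few and mainly glial precursors.

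The promoter sequences are shown first because the peaks lay on them. RefSeq promoter windows (GRCm38.p6, the build with the coordinates of mm10) were found for 36 of the 43 genes. Each sequence below is the 150 bases before the start of transcription, 5′ to 3′ on the strand of the gene, ending at the base before the start. Capitals mark CCAAT boxes (CCAAT, or ATTGG on the other strand) and CHR elements (TTTGAA or TTTAAA, or TTCAAA on the other strand). Some CHR elements lie after the start and so outside the part shown. The first 5 genes are shown because they held some of the highest peaks in the list and carry 3 or more CCAAT boxes in the window that runs from 250 bases before the start to 50 after it. Ccnb2, whose peaks were lower and missing in 1 library, is shown with them for the even spacing of its boxes. The positions are Top2a at chr11:99024190-99024339 (minus strand), Ect2 at chr3:27153879-27154028 (minus strand), Hmmr at chr11:40733438-40733587 (minus strand), Ube2c at chr2:164769779-164769928 (plus strand), Cdca8 at chr4:124936918-124937067 (minus strand) and Ccnb2 at chr9:70421555-70421704 (minus strand).
Top2a: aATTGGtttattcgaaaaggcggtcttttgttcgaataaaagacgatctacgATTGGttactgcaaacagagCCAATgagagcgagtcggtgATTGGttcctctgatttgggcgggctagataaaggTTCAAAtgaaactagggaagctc
Ect2: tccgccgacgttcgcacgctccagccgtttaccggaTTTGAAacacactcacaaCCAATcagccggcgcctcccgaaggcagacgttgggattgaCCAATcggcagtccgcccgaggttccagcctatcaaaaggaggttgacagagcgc
Hmmr: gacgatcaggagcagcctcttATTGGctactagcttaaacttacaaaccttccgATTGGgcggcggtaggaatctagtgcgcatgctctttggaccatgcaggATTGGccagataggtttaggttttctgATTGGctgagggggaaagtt
Ube2c: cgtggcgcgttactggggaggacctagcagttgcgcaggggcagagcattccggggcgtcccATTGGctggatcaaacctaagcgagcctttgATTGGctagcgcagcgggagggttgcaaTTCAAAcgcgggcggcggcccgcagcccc
Cdca8: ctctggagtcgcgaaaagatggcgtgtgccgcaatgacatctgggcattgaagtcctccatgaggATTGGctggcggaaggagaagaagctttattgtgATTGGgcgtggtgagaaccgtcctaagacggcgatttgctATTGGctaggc
Ccnb2: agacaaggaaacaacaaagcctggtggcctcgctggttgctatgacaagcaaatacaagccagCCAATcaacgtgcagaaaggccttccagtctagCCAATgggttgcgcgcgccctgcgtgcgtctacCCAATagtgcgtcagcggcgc

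Another 3 promoters are shown because they carry both elements in the whole window and had few or no peaks. Mki67 at chr7:135716380-135716529 (minus strand) had a peak in 1 library, and Plk1 at chr7:122159285-122159434 (plus strand) and Bub1b at chr2:118598061-118598210 (plus strand) had none.
Mki67: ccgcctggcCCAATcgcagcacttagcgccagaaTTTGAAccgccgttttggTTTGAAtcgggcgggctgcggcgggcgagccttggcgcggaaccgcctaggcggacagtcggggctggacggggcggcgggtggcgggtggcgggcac
Plk1: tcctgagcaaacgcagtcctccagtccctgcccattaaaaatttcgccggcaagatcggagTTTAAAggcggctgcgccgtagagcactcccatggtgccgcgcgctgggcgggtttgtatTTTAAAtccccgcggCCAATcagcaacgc
Bub1b: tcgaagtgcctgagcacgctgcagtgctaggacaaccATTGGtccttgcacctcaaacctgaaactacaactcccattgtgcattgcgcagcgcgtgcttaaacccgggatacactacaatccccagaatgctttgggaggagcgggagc

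A gene-end peak was defined as a peak overlapping the 1000 bp to either side of either end of the RefSeq span of a gene, and for each gene and library the peak with the highest fold enrichment was kept. Fold enrichment is the authors' value at the peak summit over the peak caller's background. Of the 43 mitotic genes, 18 (41.9%) had a gene-end peak in all 6 libraries, 19 in 1 to 5 libraries and 6 in none. Over all 21883 genes, 11.6% had one in all 6 libraries, and over the 21840 other genes the share was 11.5%, with 28.5% in 1 to 5 libraries and 59.9% in none. A gene with a peak in all 6 libraries is called constant below, and there were 2538 such genes. The peaks of a constant gene need not lie at the same site in every library.

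The libraries differed in how many peaks they gave, from 5421 in vehicle replicate 1 to 20541 in vehicle replicate 3, with 11082 to 17558 in the estradiol libraries. In each library the lowest summit held 4 fragments and the median summit 6, as recovered from each peak's fold and p, so a weak site can be missed and the lack of a peak is not a lack of binding. Replicate 3 of both groups has another style of peak names and shorter labels than replicates 1 and 2, and was treated as a batch of its own with 1 library per group. Among marker genes of brain cell types, gene-end peaks in all 6 libraries were found at 1 of 8 neuronal markers (Syt1) and at no marker of astrocytes, oligodendrocytes, their precursors, microglia, endothelium and neural progenitors. A gene-end peak in 1 to 5 libraries was found at 4 neuronal markers, 2 of 5 astrocyte, 3 of 5 oligodendrocyte, 2 of 5 precursor and 2 of 7 progenitor markers. All 5 microglial and all 5 endothelial markers lacked a gene-end peak in every library. Of the 21840 genes outside the mitotic list, 11.5% had a peak in all 6 libraries, 28.5% in 1 to 5 and 59.9% in none. Lists of 5 to 8 markers are too short to be told apart from these shares. A peak shows neither expression nor which cells carried it.

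**Figure D1:**
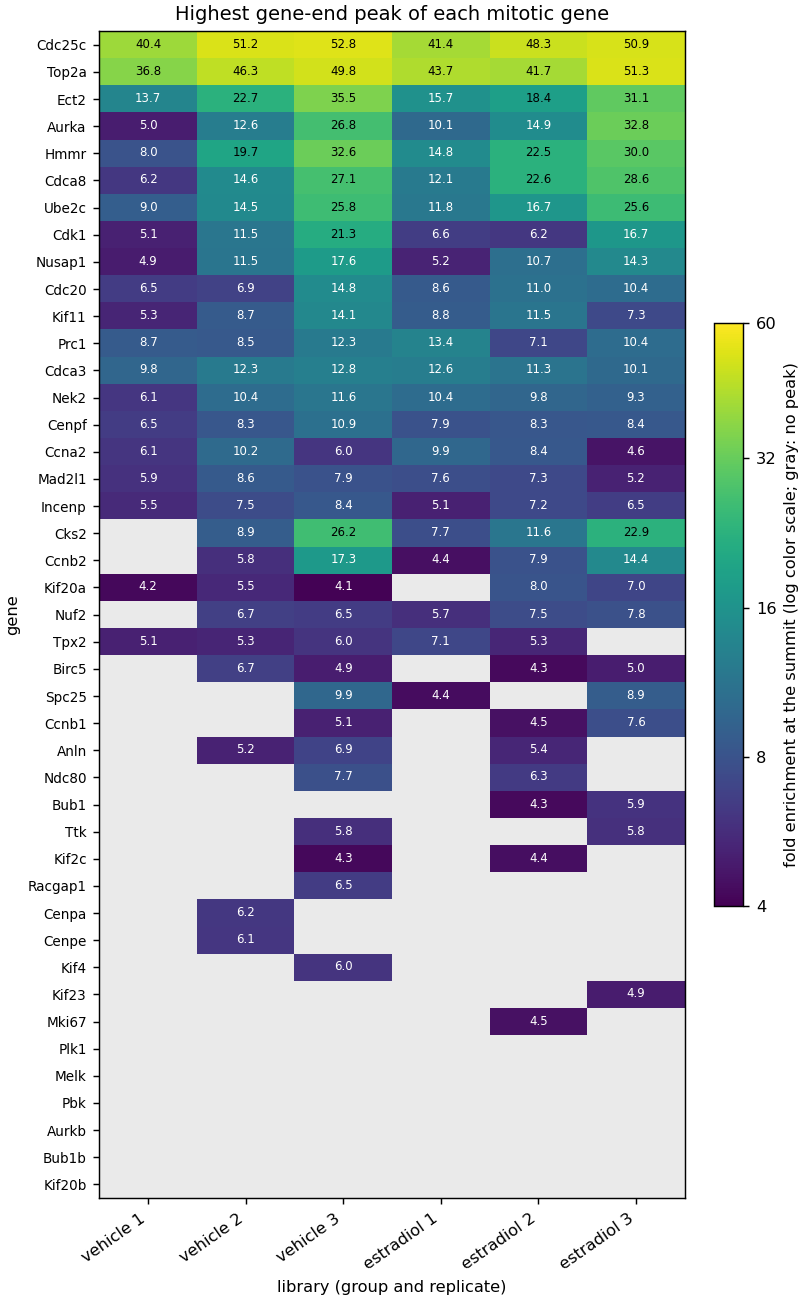
Fold enrichment at the summit of the highest gene-end peak of each of the 43 genes (rows) in each of the 6 libraries (columns), on a log color scale with the value printed in each cell; gray cells had no peak. The upper 18 rows are filled in every library, led by Cdc25c and Top2a at 36.8 or more, and the lowest 6 rows are empty.

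Kinases, cyclins and the phosphatase that drive entry into mitosis made up 12 of the 43 genes, of which 6 were constant, 3 had peaks in some libraries and 3 had none. Cdc25c, the phosphatase that removes inhibitory phosphates from Cdk1, had a fold enrichment of 40.4, 51.2 and 52.8 in vehicle replicates 1, 2 and 3 and of 41.4, 48.3 and 50.9 in the estradiol replicates. Among the constant genes these peaks ranked 1st in each vehicle library and in estradiol replicate 2, and 3rd in the other 2 libraries. Their summits lay 77 to 110 bp from an end of the gene span (chromosome 18, 34732993 to 34751564), and the nearest end of another protein-coding gene, Fam53c, was 7157 bp or more away. Cdca3, an adaptor of mitotic entry that directs Wee1 to degradation, had 2 main sites. The first lay outside its span on the side of Usp5, with summits at −1124 to −1103 bp from the start where it was the highest. This site had folds of 9.79, 12.3 and 11.8 with vehicle and 9.34, 11.3 and 10.1 with estradiol. The site at its start had no peak in vehicle replicate 1 and folds of 7.21 to 12.8 in the other 5 libraries, and was the higher of the 2 in vehicle replicate 3 and estradiol replicate 1. Nek2, a kinase of centrosome separation, had 6.15, 10.4 and 11.6 with vehicle and 10.4, 9.82 and 9.31 with estradiol. For both Cdca3 sites and Nek2, as for Cdc25c, the vehicle and estradiol ranges overlapped.

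The remaining entry genes are given for completeness, and were picked for description after their values were seen. Aurka, the kinase of spindle pole maturation, had folds of 4.97, 12.6 and 26.8 with vehicle and 10.1, 14.9 and 32.8 with estradiol, and replicate 3 had the best rank of each group. Cdk1, the kinase that starts mitosis, had 5.11, 11.5 and 21.3 with vehicle and 6.56, 6.18 and 16.7 with estradiol, again with the best ranks in replicate 3. Ccna2, its cyclin A partner, was constant with folds of 4.60 to 10.2. Cks2, a small subunit that binds Cdk1, had no peak in vehicle replicate 1 and folds of 8.90 and 26.2 in vehicle replicates 2 and 3 and of 7.67, 11.6 and 22.9 with estradiol. Ccnb2, a B-type cyclin, was likewise missing in vehicle replicate 1 and reached 17.3 in vehicle replicate 3 and 14.4 in estradiol replicate 3. Its paralog Ccnb1 had peaks in vehicle replicate 3 and estradiol replicates 2 and 3, with folds of 4.53 to 7.63. Plk1, the polo-like kinase of mitotic entry, and the kinase genes Melk and Pbk had no gene-end peak in any library.

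Of the genes for chromosome structure and proliferation, Top2a and Mki67 stood at opposite ends. Top2a, the topoisomerase that untangles replicated chromosomes, had folds of 36.8, 46.3 and 49.8 with vehicle and 43.7, 41.7 and 51.3 with estradiol, from 75 to 227 summit fragments. It ranked between 1st and 3rd of the 2538 constant genes in every library, and its summits lay 61 to 89 bp before the start of transcription. The 6 summits fell around the CCAAT boxes in the last 100 bases of the promoter printed above. Mki67, the gene of the proliferation marker Ki-67, carries 3 CCAAT boxes and 2 CHR elements, yet had 1 peak of fold 4.53 and 4 fragments, in estradiol replicate 2.

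The chromosomal passenger complex corrects the attachment of chromosomes to the spindle, and of its 4 genes Cdca8 and Incenp were constant. Cdca8, which encodes borealin, had folds of 6.22, 14.6 and 27.1 with vehicle and 12.1, 22.6 and 28.6 with estradiol. By rank among the constant genes it stood lowest in vehicle replicate 1 (1625) and highest in estradiol replicate 2 (51). Incenp, the scaffold of the complex, was lower, at folds of 5.13 to 8.41. Birc5, which encodes survivin, had peaks of fold 4.29 to 6.72 in 4 libraries, and Aurkb, the catalytic kinase, had none.

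Among 6 genes of the spindle checkpoint and the anaphase-promoting complex, Ube2c, Cdc20 and Mad2l1 were constant. Ube2c, the ubiquitin-conjugating enzyme of the anaphase-promoting complex, had folds of 9.0, 14.5 and 25.8 with vehicle and 11.8, 16.7 and 25.6 with estradiol. Cdc20, an activator of the same complex, had 6.46, 6.86 and 14.8 with vehicle and 8.62, 11.0 and 10.4 with estradiol. Both genes had overlapping ranges in the groups. Mad2l1, the checkpoint inhibitor of Cdc20, had folds of 5.18 to 8.59. Bub1, a checkpoint kinase, had peaks only in estradiol replicates 2 and 3, of fold 4.29 and 5.94 from 4 and 6 fragments. Ttk, the Mps1 kinase, had a peak in replicate 3 of each group, and Bub1b, which encodes BubR1, had none.

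Centromere and kinetochore genes were mostly found in some libraries only, with 1 constant gene of 6. Cenpf, a large kinetochore protein, had folds of 6.46, 8.34 and 10.9 with vehicle and 7.92, 8.34 and 8.39 with estradiol. Nuf2, Spc25 and Ndc80 encode parts of the Ndc80 complex, which grips spindle microtubules, and had peaks in 5, 3 and 2 libraries with folds of at most 9.89. Cenpa, the centromeric histone, and Cenpe, a kinetochore motor, had a peak in vehicle replicate 2 alone, each from 6 fragments.

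Spindle motors and microtubule-associated proteins had 3 constant genes of 7. Hmmr, which helps to focus spindle poles, had folds of 7.97, 19.7 and 32.6 with vehicle and 14.8, 22.5 and 30.0 with estradiol, and ranked 892nd in vehicle replicate 1 and between 53rd and 209th in the other 5 libraries. Kif11, the kinesin that pushes spindle poles apart, had 5.31, 8.75 and 14.1 with vehicle and 8.75, 11.5 and 7.28 with estradiol. Either gene had its lowest rank in vehicle replicate 1, the list with the fewest peaks. Nusap1, a binder of spindle microtubules, had folds of 4.94 to 17.6. Tpx2, an activator of Aurora A, had peaks of 5.11 to 7.12 in all libraries but estradiol replicate 3. Kif2c, which takes microtubules apart, and the chromokinesin gene Kif4 had peaks of at most 6 fragments in 2 and 1 libraries, and Kif20b had none.

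In the central spindle and cytokinesis group, Ect2 and Prc1 were constant and 4 genes had peaks in some libraries. Ect2, the exchange factor that activates RhoA at the division plane, had folds of 13.7, 22.7 and 35.5 with vehicle and 15.7, 18.4 and 31.1 with estradiol, and never ranked below 163rd of 2538. Prc1, which bundles central spindle microtubules, had 8.69, 8.50 and 12.3 with vehicle and 13.4, 7.11 and 10.4 with estradiol. The groups overlapped for both genes. Kif20a, a kinesin of the central spindle, had peaks of fold 4.07 to 8.04 in 5 libraries, and Anln, which encodes anillin, of 5.18 to 6.86 in 3. Racgap1 and Kif23, the partners of the centralspindlin complex, had 1 gene-end peak each, in vehicle replicate 3 and estradiol replicate 3.

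The 1000 bp limit decided few genes. Ccna2 was the constant gene closest to it, with peaks whose nearer edge lay 769 to 866 bp inside the gene from its end. Just outside were peaks 1020 and 1036 bp beyond Cks2 in replicate 3 of each group, with folds of 5.67 and 7.03. Also outside were peaks 1355 to 1382 bp beyond Kif23 in all 3 vehicle libraries, with folds of 4.84 to 7.95, and peaks 2615 to 2650 bp beyond the other end of Kif23 in all 3 estradiol libraries and vehicle replicates 2 and 3, with folds of 5.23 to 9.48.

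Height was compared within each list, since the values of different lists have no common scale. Of the gene-end peaks of a library, the median mitotic gene stood at the 44.9, 71.6 and 80.6 percentile in vehicle replicates 1, 2 and 3 and at the 74.7, 64.0 and 77.2 percentile in the estradiol replicates, a mean of 68.8 ± 13.0 (SD, n = 6). Here the highest peak of each mitotic gene was set against all gene-end peaks, lower peaks of a gene included. That raises the percentile, so its middle is not the neutral level. In vehicle replicate 1 the median fold of the 20 mitotic genes with a peak was 6.18, below the 6.55 of other genes, and in each of the other 5 libraries it was above. Among the 2538 constant genes, 11 of the 18 mitotic genes had a median rank above the middle of the range, and the median of their median ranks was 1068.75. The 10 highest ranks held Cdc25c and Top2a in every library and no other mitotic gene. The 100 highest held 2, 3 and 4 of the 18 in vehicle replicates 1, 2 and 3 and 2, 4 and 6 in the estradiol replicates. The list was described as holding some of the highest constant peaks from these same heights, so the ranks are no check of that description. The highest ranks came from a few genes, while 7 of the 18 constant genes lay below the middle rank.

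**Figure D2:**
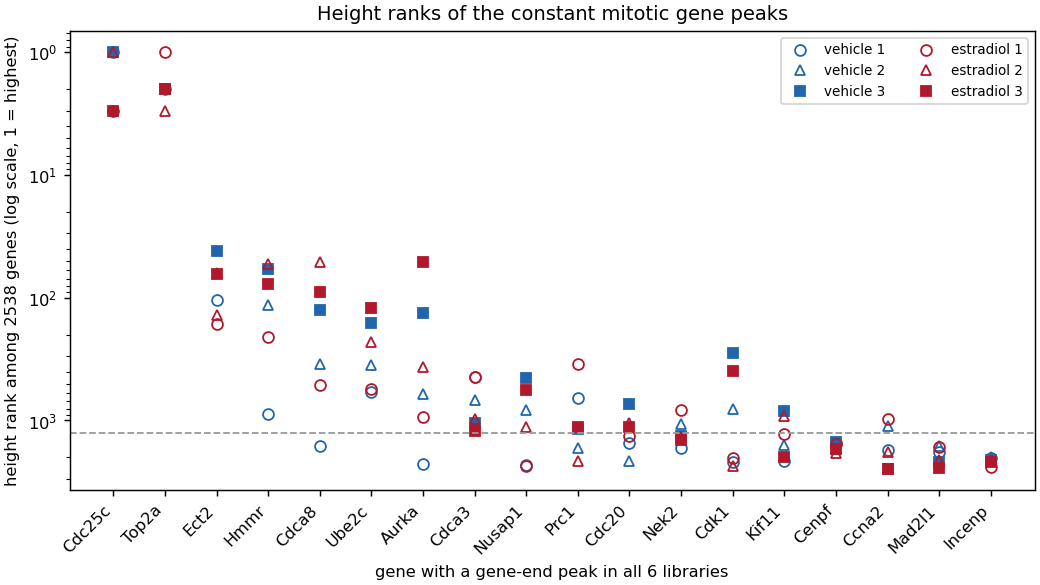
Rank of the fold enrichment of each constant mitotic gene among the 2538 constant genes (log axis, 1 the highest at the top), with vehicle libraries in blue, estradiol libraries in red, filled squares for replicate 3 and a dashed line at the middle rank. Cdc25c and Top2a stay at ranks 1 to 3, Ect2 at 42 to 163, and the ranks of the groups overlap for each gene but Incenp.

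The design asked what estradiol changed. No mitotic gene had a gene-end peak in all 3 estradiol libraries and no vehicle library, a pattern found at 0.260% of all genes, and none had the reverse, found at 0.0366%. Gene-end peaks were present at 20, 27 and 32 of the 43 genes in vehicle replicates 1, 2 and 3 and at 23, 30 and 28 in the estradiol replicates. The shares were 61.2% ± 14.0 with vehicle and 62.8% ± 8.39 with estradiol (SD, n = 3 each), and those of the other genes were 24.8% ± 9.87 and 26.6% ± 2.66. The groups overlapped, and with 3 libraries against 3 an exact permutation test of 1 value cannot give a p below 0.1. By height, no constant mitotic gene had every estradiol rank above every vehicle rank, a pattern of 3.98% of the constant genes. Incenp alone had every vehicle rank above every estradiol rank (1967, 2033 and 2100 against 2116, 2190 and 2395), a pattern of 3.62%, which is 1 of 18 here.

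Within replicates 1 and 2, 19 mitotic genes (44.2%) had a peak in all 4 libraries, against 11.9% of other genes, and none had it in both estradiol libraries without a vehicle library, against 1.64% of other genes. Within replicate 3, 26 (60.5%) had a peak in both libraries, against 25.1% of other genes. Bub1 and Kif23 had it with estradiol only (4.65% of the list, 3.06% of other genes), and Anln, Kif2c, Kif4, Ndc80, Racgap1 and Tpx2 with vehicle only (14.0%, against 8.45%). Height ranks were also set against replicate number, without a test, and the counts of 18 genes are small. Cdk1, Aurka, Ube2c and Nusap1, 4 of the 18 constant genes, had both replicate 3 ranks above the other 4 ranks, a pattern of 11.4% of constant genes. Ccna2, Cdca3 and Mad2l1 had both below, a pattern of 11.4% as well. Vehicle replicate 1 gave the lowest rank at 6 of the 18 genes, against 19.2% of all constant genes.

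**Figure D3:**
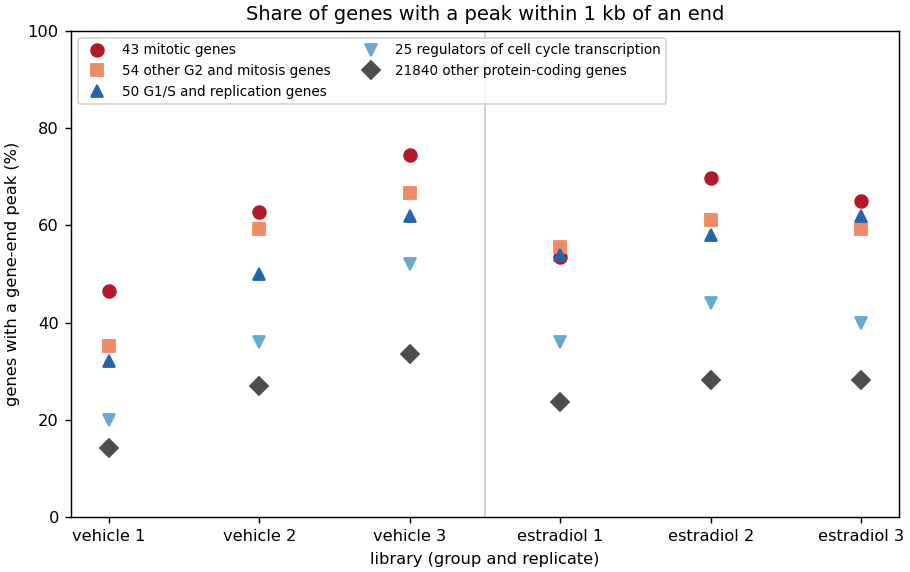
Percent of genes with a gene-end peak in each library (3 vehicle at the left, 3 estradiol at the right) for the 43 mitotic genes, 54 other G2 and mitosis genes, 50 G1/S and replication genes, 25 regulators of cell cycle transcription and the 21840 other protein-coding genes, which include these lists. The mitotic genes range from 46.5% to 74.4%, above the other protein-coding genes in each library, and every list is lowest in vehicle replicate 1.

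The peaks lay at the start of the genes. For 32 mitotic genes with a peak and a known strand, 132 of 132 gene-end peaks, the highest of each gene and library, were at the start end of the span, against 94.1% of 27699 such peaks of other genes. With lower peaks included, 146 of 147 were at the start end, and the exception was a Cdk1 peak of fold 4.99 in vehicle replicate 3. The summit lay in the window from 250 bases before to 50 after the start for 114 of the 132 peaks (86.4%), against 72.7% of the others. Its median position was 76.5 bp before the start, and 68 bp before it for other genes. The summits outside this window were all 6 of Nusap1 at 207 to 347 bp after the start, 4 of Mad2l1 at 58 to 123 bp after it, both of Ndc80 at −281 bp, 4 of Cdca3 at −1124 to −1103 bp and both of Kif2c at −3856 and −3820 bp, at the outer end of its span.

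Sequence was not used to choose the list, but peaks were. Windows of other genes with more CCAAT boxes more often had a constant peak, so the CCAAT shares are not independent of the choice. Windows of 300 bases, from 250 before to 50 after the start, were searched on both strands for 36 genes (38 windows, since Ect2 and Prc1 have 2 starts each). CCAAT was found in 29 windows (76.3%), against 38.1% of the 21224 windows of other protein-coding genes and 67.3% of the 2004 windows of other genes that had a peak over the window in all 6 libraries. At least 2 CCAAT boxes were found in 21 windows (55.3%), against 12.7% and 44.7%. A CHR element, TTTGAA or TTTAAA, was found in 31 windows (81.6%), against 24.9% of other windows and 15.0% of the other windows with a constant peak. Among windows with a peak over them in all 6 libraries, all 14 mitotic windows (of 12 genes) had a CCAAT box, 11 had at least 2 and 13 had a CHR. Of 43 CHR copies, 32 lay within 50 bases of the start, with a copy in the windows of both starts of a gene counted once. The window itself ends 50 bases after the start, and no such count is given for other genes.

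Both elements stood together in 26 of the 38 windows (68.4%), against 9.84% of other windows, and neither was found in those of Mad2l1, Melk, Nuf2 and Nusap1. The GC box GGGCGG, bound by Sp1, was found in 31 windows (81.6%), against 46.1% of other windows and 73.9% of other windows with a constant peak. The E2F sequences TTTCGCGC and TTTGGCGC were found in 1 window, the cyclic AMP response element TGACGTCA in 2, and the estrogen response element in none, with shares of 1.05%, 2.23% and 0.0518% in other windows. A single arm of it, AGGTCA, which may lie inside a full element, was found in 6 windows (15.8%), against 14.7%. The median GC content of the mitotic windows was 58.8%, that of other windows 56.3% and that of other windows with a constant peak 61.3%. These are matches of letters, and no statement about any factor follows from them.

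Windows with more CCAAT boxes more often had a peak in all 6 libraries. Among mitotic windows, a peak lay over the window in all 6 libraries in 0 of 9 with no CCAAT box, 3 of 8 with 1, 4 of 10 with 2 and 7 of 11 with 3 or more. In other protein-coding genes the shares were 5.00%, 8.41%, 24.3% and 53.3%. By gene-end peaks, Mad2l1 and Nusap1 were constant without a box in the window, most of their summits lying past its edge. By that measure 15 of 17 windows of constant mitotic genes had a box, against 14 of 21 windows of the remaining mitotic genes. No library had a peak over 4 of the 9 mitotic windows without a box and 2 of the 8 with 1 box, and each of the 21 with 2 or more had a peak in at least 1 library. Of other windows, 71.8%, 66.5%, 49.8% and 26.9% of those with 0, 1, 2 and 3 or more boxes had no peak in any library. Top2a had the most boxes, 6, as had Ube2c with a pair on opposite strands that overlap counted as 2, followed by Hmmr with 5 and Cdca8 and Cks2 with 4. The number did not fix the height, since Mki67 has 3 boxes and 1 weak peak. For the CHR, a peak lay over the window in all 6 libraries in 13 of 31 mitotic windows with a CHR and in 1 of 7 without one. In other windows the shares were 5.70% with a CHR and 10.7% without. By gene-end peaks the mitotic windows differed little: a CHR was in 14 of 17 windows of constant genes and in 17 of 21 of the remaining genes.

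**Figure D4:**
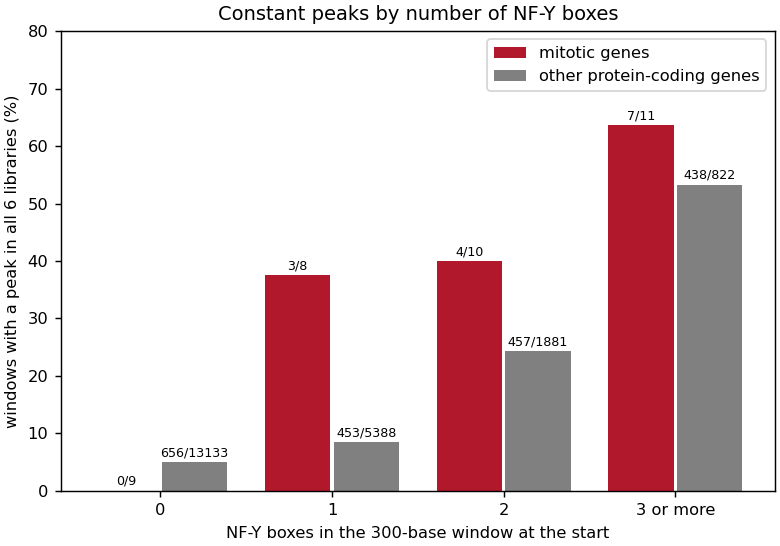
Percent of promoter windows of 300 bases with a peak in all 6 libraries, by the number of CCAAT boxes (NF-Y boxes) in the window, for mitotic genes (red) and other protein-coding genes (gray); the fraction over each bar gives windows with the constant peak over all windows. Bars rise from 0 of 9 to 7 of 11 for the mitotic genes and from 5.00% to 53.3% for the others.

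Many summits also lay near these boxes. Of 100 summits of 25 mitotic genes with a CCAAT box and a summit in the window, 70 (70.0%) were within 20 bp of the centre of the nearest box, at a median of 13 bp, against 45.8% and 23 bp for other genes. At Kif11, Kif23 and Prc1 the median summit was farther off, 95 to 138 bp from the nearest box. Mitotic windows held more boxes (a mean of 2.60 against 1.80), which shortens the distance to the nearest one, and its part in the difference was not tested. Boxes and summits also both crowd the bases just before the start, and the part of this shared position was not tested. Summits of 1 gene in several libraries are not independent of each other. For constant genes the shares were 63.5% for the mitotic and 52.8% for the other genes, with means of 3.08 and 2.22 boxes. Neighbouring boxes 31 to 34 bp apart, a range picked after the spacings were seen, were found in 10 of 21 mitotic windows with 2 or more boxes (47.6%). The share was 10.5% in other windows with 2 or more boxes and 16.9% in those of them with a constant peak. The 10 genes were Aurka, Ccnb1, Ccnb2, Cdca3, Cdca8, Cdk1, Hmmr, Nek2, Spc25 and Ube2c, and in the Ccnb2 promoter printed above 3 boxes follow each other at 33 bp and 33 bp.

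**Figure D5:**
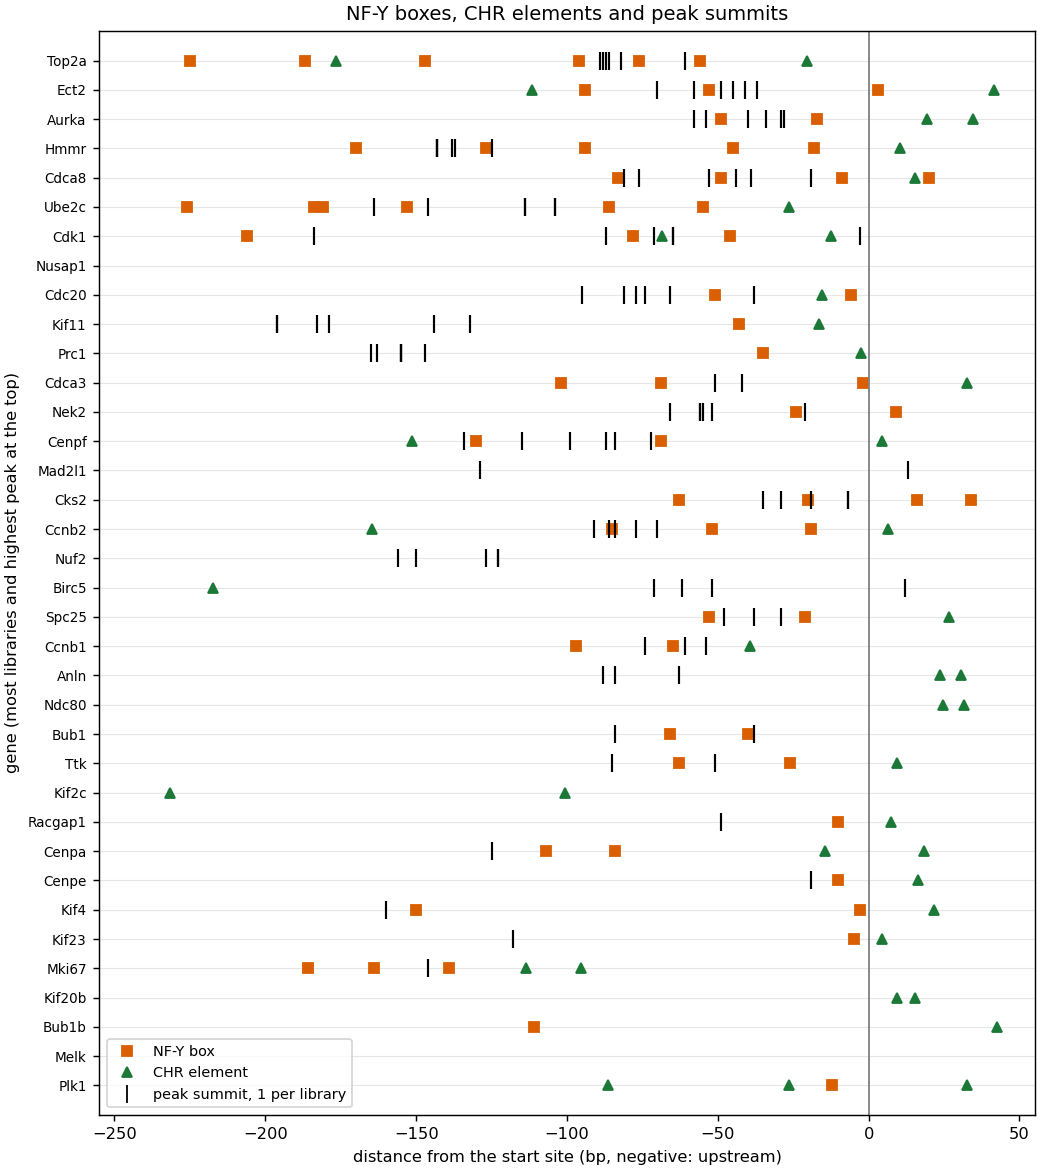
Positions of CCAAT boxes (NF-Y boxes, orange squares), CHR elements (green triangles) and peak summits (black ticks, 1 per library) along the window from 250 bp before to 50 bp after the start of transcription, for the 36 genes with a RefSeq promoter, ordered by number of libraries with a peak and then by height. Boxes and summits crowd the 100 bp before the start. Of 43 CHR copies, 32 lie within 50 bp of the start, with no such count given for other genes.

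Some of these starts are shared with a neighbour. Of the 18 constant genes, 7 had a peak within 1000 bp of the end of another protein-coding gene. Measured to the ends of the gene spans, at least 1 summit was closer to the neighbour at 5 of them, so the peak cannot be given to the mitotic gene alone. At Aurka the median summit was 38 bp from Cstf1 and 279 bp from the end of the Aurka span, but at −37 bp from the start of Aurka, which lies inside that span. At Hmmr it was 67.5 bp from Nudcd2 and 113.5 bp from the end of the Hmmr span. Nusap1 with Oip5 (104.5 against 311.5 bp) and Cdca8 with 9930104L06Rik (18.5 against 48.5 bp) also lay closer to the neighbour, whereas the Prc1 peak was closer to Prc1 (149 bp) than to Rccd1 (295 bp). Cdca3 had up to 3 gene-end peaks in a library, at its own start, at the outer end of its span and beyond that end. The end of another gene lay within 1000 bp of an end of 8 of the 18 constant mitotic genes (44.4%), against 48.7% of the other constant genes. Genes without such a neighbour were constant in 10 of 30 cases on the list (33.3%) and in 7.87% of other genes.

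Inside the genes, more than 1000 bp from either end, peaks were few and weak. In at least 1 library such a peak was found in 8 of the 43 genes (Anln, Bub1b, Cdca8, Cdk1, Cenpf, Kif23, Nuf2 and Plk1), against 28.0% of all genes, and in none of them in all 6 libraries, against 2.98% of other genes. The 10 inside peaks held 4 or 5 fragments each. Plk1 and Bub1b, which had no gene-end peak, thus had 1 inside peak in estradiol replicate 3 and 1 each in vehicle replicate 2 and estradiol replicate 1.

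Other cell cycle genes were read from lists written with earlier results known. Of 54 other G2 and mitosis genes, 18 (33.3%) had a gene-end peak in all 6 libraries, and of 50 genes of the G1/S transition and DNA replication 14 (28.0%), both above the 11.6% of all genes. Of 14 core subunits of the anaphase-promoting complex, 5 (35.7%) were constant. Among 25 regulators of cell cycle transcription 5 (20.0%) were constant, namely Lin52 and Rbbp4 of the MuvB core, E2f3, the NF-Y subunit gene Nfya, and Trp53. Cdk4 and Cdk5 were the constant genes (20.0%) in a list of 10, which held other cyclins, cyclin-dependent kinases and Mnat1. Cdk5 is a kinase of neurons that have left the cycle. In none of these counts can genes be taken as replicates.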

How the data were processed

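ERα CUT&RUN libraries of 3 vehicle and 3 estradiol samples were each deposited as 1 peak list. The build mm10 and the tools MACS2, deepTools, SAMtools, Picard, Bowtie2 and cutadapt stand in the submitters' processing notes, where neither roles nor versions are given. Per the file contents, the deposited columns hold an integer score, a fold enrichment (a ratio), p- and q-values as −log10, and a summit; the deposited −log10 q began at 2.00 to 2.01 in the lists, and peak names carry a q-value of 0.01. Use of a control library in the peak calls is not stated in the sources used here.

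Peaks were joined to a RefSeq table (GRCm38.p6) by overlap of at least 1 bp with windows of 1000 bp at the gene ends, and ranked by fold within a list. Summit fragments were recovered from fold and p-value with a tolerance of 0.0001 in −log10 p, which matched 100% of peaks, on the assumption of a pseudocount of 1 and a Poisson tail. Promoters of 300 bases came from RefSeq. The scripts were tested on simulated data.

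Groups came from sample titles. The genes and lists were chosen with earlier results of these data known. Values in every library were given, by rule, for the 12 constant genes with the best lowest rank over the libraries; values of other genes were picked after they were seen. No test across genes was run, since heights were used to choose the list. The alternatives were window width, a −log10 q of 5, lists of equal length, the start site only, a shorter promoter window, each library left out and a replicate block. The comparison of height ranks between groups was added after the data were seen. Python 3.11.15, numpy 2.4.6, pandas 2.3.3, scipy 1.17.1 and matplotlib 3.10.9 were used.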

Additional observations from a re-analysis of the deposited data

How the results depend on the processing

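The count of 18 constant mitotic genes (11.5% of other genes) ranged from 18 to 21 when 1 library was left out, with 21 and 17.1% of other genes without vehicle replicate 1. It was 17 with windows of 500 bp (10.6%), 18 with 2000 bp (12.7%), 14 with lists cut to equal length (7.80%) and 15 of 36 at the start site only (12.4%). At a −log10 q of at least 5 it was 9 (6.16% of other genes), and the mitotic genes with an inside peak numbered 0 (13.9% of other genes). With the 100 bases before the start alone, CHR elements were found in 10 windows (8.43% of other windows) and CCAAT in 27 (20.7%), so most CHR matches lie outside those bases. The mean height percentile ranged from 66.5 to 73.6 with 1 library left out. Genes with a peak in every estradiol and no vehicle library ranged from 0 to 1, the 1 being Bub1 without estradiol replicate 1 (0.710% of other genes, 0.261% with all libraries), and the reverse count from 0 to 0. With the replicate number as a block, that is a peak gained in at least 2 pairs and lost in none, the counts were 1 (Bub1) and 0, against 2.08% and 1.31% of other genes. Correlations of vehicle with estradiol libraries, each taken as its departure from its group mean, were 0.26, 0.03 and 0.43 for the same number. They ranged from −0.36 to 0.17 for different numbers. Departures from a mean of 3 libraries offset each other, so values below 0 are built in for some pairs. They do not describe how alike the heights themselves were between libraries. Replicates 1 and 3 were highest with their own number. Vehicle replicate 2 was higher with estradiol replicate 1 (0.09), so the numbers were not shown to pair all libraries. The rank comparison gave 1 gene by fold and by −log10 q. Peaks of 4 to 6 fragments are near the limit of detection, and replicate 3 is 1 library per group.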
